A study of Mus musculus with 12 samples.

Results

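The 10 genes described here are Trp53, which encodes the transcription factor p53, the genes of its inhibitors Mdm2 and Mdm4, and 7 genes that p53 is known to switch on during growth arrest or as feedback on itself: Cdkn1a, Btg2, Plk2, Ccng1, Zmat3, Phlda3 and Gdf15. They were chosen by gene symbol from knowledge of the pathway, and earlier results of these data were known at the time. They are 10 of the 52535 symbols in the count tables. RNA-seq was performed on cells treated with PKF118-310, a small-molecule inhibitor of β-catenin/Tcf, and on control cells of 3 mouse T-cell acute lymphoblastic leukemia (T-ALL) lines named 240, 242 and 352, each from a different mouse. Every line carried Akt2 and Dlx5 transgenes, with an Akt2 made active by a myristoylation signal and both genes driven by the T-cell promoter Lck, so the control cells were double transgenic as well and no cells without the transgenes were compared. Each line gave 1 PKF118-310 library and 1 control library (n = 3 per group), and the dose and duration of treatment are not in the sample labels.

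p53 is a transcription factor that is kept low in unstressed cells and accumulates after DNA damage, oncogene activation and other stresses. Mdm2 marks p53 for degradation, Mdm4 blocks its activity, and because Mdm2 is itself a p53 target the pair forms a feedback loop. Immature T cells of the thymus are well known for a strong p53 response, and mice that lack p53 develop thymic lymphomas.

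Total counts were 604984 to 13766638 in the PKF118-310 libraries and 3354980 to 13221186 in the control libraries. The PKF118-310 library of line 242 was the smallest. It stood apart in its mitochondrial share, with 11.8% of its counts from mitochondrial genes against 1.84% to 3.10% in the other 5 libraries. It also had counts for 21241 genes, more than any other library despite its low depth, against 14175 in its control. The treated libraries of lines 240 and 352 also exceeded their controls, with 18155 against 15150 genes and 21049 against 17495. Leaving out line 242 therefore does not remove this feature. The T-cell marker list had 12 of 13 genes averaging over 10 CPM (counts scaled to the size of each library). It summed to 6650, 3237 and 3660 CPM in PKF118-310-treated lines 240, 242 and 352, against 6251, 6373 and 4683 CPM in their controls. The sum was thus lower after treatment in lines 242 and 352 and slightly higher in line 240. Markers of B cells summed to at most 3.71 CPM in PKF118-310 and 0.295 CPM in control libraries, and those of erythroid cells to at most 0.319 and 0.148 CPM, with Hbb-bs at 0 everywhere. Myeloid markers summed to 14.99 to 55.7 CPM in PKF118-310 and 11.7 to 47.8 CPM in control libraries, with Lyz2 and S100a8 at 0 in all 6. Fibroblast and epithelial markers reached 40.8 and 20.4 CPM in PKF118-310-treated line 242, from 22 and 11 counts, against at most 1.59 and 0.838 CPM in the other PKF118-310 libraries and 0.314 and 0.221 CPM in the controls. The members' fitted changes are therefore given with line 242 and without it, and the part that these features play in the results was not tested. The lanes of a library agreed within counting error over all genes in lines 240 and 242 (chi-square per degree of freedom 0.98 to 1.02) but not in line 352 (2.05 in the PKF118-310 and 2.01 in the control library), so the counting intervals of line 352 below are too narrow.

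p53 binds DNA at pairs of a 10-base half-site, and the promoters of the members that hold a half-site are shown. Promoter windows (250 bases before to 50 bases after a transcription start, RefSeq sequence, build GRCm38.p6) were available for 9 members, all but Zmat3. A half-site, a motif that reads as the same motif on both strands, was present in 4 of them (44.4%), against 9.55% of 27025 genes with a window and 39.1% of 23 other p53 targets. The 4 windows follow, 5′ to 3′ on the strand of the gene, with half-sites in capitals.
Cdkn1a, chr17:29090729-29091028, plus strand: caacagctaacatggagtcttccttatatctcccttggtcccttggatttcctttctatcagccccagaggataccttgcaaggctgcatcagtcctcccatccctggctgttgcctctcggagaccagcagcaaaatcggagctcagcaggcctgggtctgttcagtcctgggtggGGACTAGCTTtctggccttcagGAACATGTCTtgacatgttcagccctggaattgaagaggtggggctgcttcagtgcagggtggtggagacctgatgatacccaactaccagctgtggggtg
Ccng1, chr11:40755237-40755536, minus strand: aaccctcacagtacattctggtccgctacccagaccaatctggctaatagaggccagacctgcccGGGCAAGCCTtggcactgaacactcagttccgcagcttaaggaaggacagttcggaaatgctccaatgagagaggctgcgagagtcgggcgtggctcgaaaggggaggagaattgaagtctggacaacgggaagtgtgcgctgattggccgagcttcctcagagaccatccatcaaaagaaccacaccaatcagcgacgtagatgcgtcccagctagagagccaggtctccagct
Mdm2, chr10:117710709-117711008, minus strand: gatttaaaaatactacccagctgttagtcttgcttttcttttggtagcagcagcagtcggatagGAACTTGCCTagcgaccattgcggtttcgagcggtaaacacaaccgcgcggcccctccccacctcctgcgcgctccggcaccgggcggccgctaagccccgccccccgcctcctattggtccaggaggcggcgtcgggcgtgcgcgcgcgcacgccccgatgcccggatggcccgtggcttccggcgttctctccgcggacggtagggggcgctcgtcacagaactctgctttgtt
Trp53, chr11:69580109-69580408, plus strand: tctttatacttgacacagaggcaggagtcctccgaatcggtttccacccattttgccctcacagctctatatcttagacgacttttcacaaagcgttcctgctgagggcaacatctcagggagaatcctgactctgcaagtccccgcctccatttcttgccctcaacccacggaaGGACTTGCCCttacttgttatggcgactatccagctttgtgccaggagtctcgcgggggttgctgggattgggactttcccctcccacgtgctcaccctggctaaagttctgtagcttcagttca

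The half-sites began 185 bases upstream of the start in Ccng1 (GGGCAAGCCT), 186 in Mdm2 (GAACTTGCCT) and 75 in Trp53 (GGACTTGCCC). Cdkn1a held 2, GGACTAGCTT and GAACATGTCT, beginning 73 and 51 bases upstream with 12 bases between them. It was the only member with half-sites no more than 13 bases apart, an arrangement found in 20 genes (0.074%). The second of them starts a 20-base run, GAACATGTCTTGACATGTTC, that is a pair of half-sites side by side with at most 1 mismatch outside their central bases, and 18 genes (0.0666%) held such a run. The windows of Mdm4, Phlda3, Btg2, Plk2 and Gdf15 and that of a second Cdkn1a start at position 29093769 had no match to these letters. These matches are a description of the sequence, since binding was not measured.

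The first question was whether the p53 genes followed the inhibitor. In lines 240 and 352 alone, Cdkn1a, Ccng1, Zmat3, Phlda3 and Trp53 rose after PKF118-310, Mdm2, Mdm4 and Btg2 did not pass the test, and no member fell. Plk2, close to silent in controls, is set apart below. With line 242 included the fitted changes of Cdkn1a, Ccng1, Zmat3 and Phlda3 were as large or larger, at 1.62 to 2.17 (log2). None of these genes passed in that fit. Trp53 changed by 0.20 there and did not pass either. It was lower after treatment in line 242, and DESeq2 did not call it in lines 240 and 352. Changes are log2 fold changes of PKF118-310 over control from edgeR's quasi-likelihood test, with the line as a block and p-values adjusted over all genes by the Benjamini-Hochberg method (threshold 0.05). In the fit of 3 lines, 8 members could be tested and 0 passed, as did 0 of all 10331 genes (0% called), while 5 members were higher at an unadjusted p below 0.05, a mark that 2.49% of genes reached in that direction. DESeq2 on the same 6 libraries called 4 members higher, Cdkn1a, Ccng1, Zmat3 and Phlda3 (0.339% of genes). The likelihood ratio test called Ccng1, Zmat3 and Phlda3 (0.542% of genes), limma voom with sample weights the same 3 members (3.17%), and the fit with no filter on low counts added Cdkn1a and Plk2 to them (0.911%). The median change over the 8 members was 1.19, and over all genes it was 0.00.

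In lines 240 and 352, 5 of the same 8 members passed, against 5.01% of 11760 genes called higher and 5.92% called lower. Plk2 also passed there, but it entered that fit only because of its treated libraries and is not counted as support. DESeq2 gave it no adjusted p, and with either lane alone or a minimum of 10 counts in every library it could not be tested. The choice of these lines was made with results known and leaves 1 residual degree of freedom. Each line has 1 library per group, so the only replication is between lines. The quasi-likelihood test draws the spread of each gene towards a trend over all genes. Small p-values therefore do not rest on the agreement of the lines in that gene alone. In bulk RNA, a change in the share of cells that express a gene and a change in the RNA per cell cannot be told apart.

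**Figure D1:**
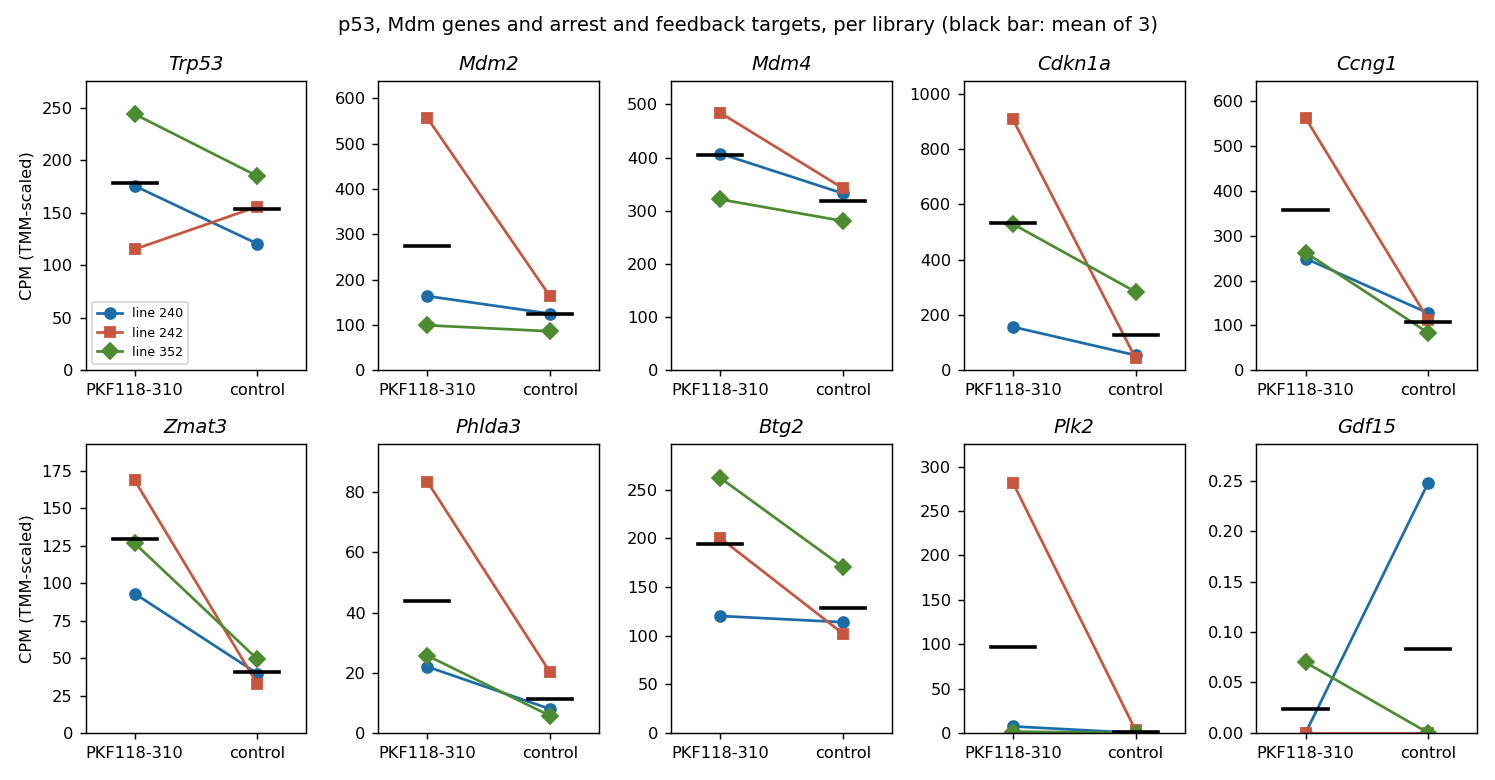
TMM-scaled CPM (vertical axis, linear, a separate scale per gene) of the 10 members in the PKF118-310 and control library of each line; each colour joins the libraries of 1 line and black bars are means of 3. Ccng1, Zmat3 and Phlda3 are higher in all PKF118-310 libraries than in all control libraries, Trp53 is lower after PKF118-310 in line 242 only, and Gdf15 stays below 0.25 CPM.

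Trp53 (chr11:69580359-69591873, plus strand, mm10) had 175.4, 115 and 244 CPM in PKF118-310-treated lines 240, 242 and 352, against 120, 156 and 185 CPM in their controls. It was thus higher after treatment in lines 240 and 352 and lower in line 242, and the groups overlapped. Means were 178 ± 64.4 CPM in PKF118-310 cells and 154 ± 32.3 CPM in control cells (SD, n = 3 each). The change was 0.20 ± 0.23 (SE, adjusted p = 0.894) in 3 lines and 0.46 ± 0.11 (adjusted p = 0.0164) without line 242, a fold of 1.38. Of all genes, 18.7% shared this order of lower in line 242 and higher in the other lines. The Trp53 value in treated line 242 came from 62 counts, and the within-line fold there was 0.739 (95% exact conditional binomial interval 0.558 to 0.964, counting error only). The folds of lines 240 and 352 were 1.46 (1.29 to 1.65) and 1.32 (1.25 to 1.39). DESeq2 did not call Trp53 in lines 240 and 352 (adjusted p = 0.110, with 0.91% of genes called higher; range over the alternatives 0.00110 to 0.9997).

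Mdm2 (chr10:117688875-117710758, minus strand), the ubiquitin ligase that removes p53, had 164, 557 and 99.2 CPM in treated lines 240, 242 and 352, against 125, 163 and 85.9 CPM in controls. Every treated library exceeded its own control, by 1.31-fold (1.16 to 1.49), 3.42-fold (2.96 to 3.95) and 1.15-fold (1.07 to 1.25), but the groups overlapped and line 242 stood well above the others. Neither fit called it, with changes of 0.77 ± 0.35 (adjusted p = 0.842) in 3 lines and 0.29 ± 0.11 (adjusted p = 0.108) without line 242. In the treated library of line 352, whose lanes differed over all genes, Mdm2 had 785 and 635 counts in the 2 lanes (exact binomial test, adjusted p = 0.00133). With lane 1 alone Mdm2 passed in lines 240 and 352 (0.41, adjusted p = 0.0397, with 4.38% of genes called higher), and with lane 2 alone it did not (0.15, adjusted p = 0.547; range over all alternatives 0.0397 to 0.9997).

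Mdm4 (chr1:132959484-133030561, minus strand), which inhibits p53 without degrading it, had the smallest fitted change among the tested members that were higher in all lines. Its levels were 408, 484 and 321 CPM after PKF118-310 and 333, 342 and 281 CPM in controls. All 3 lines lay above their controls, by 1.23-fold, 1.41-fold and 1.14-fold, with group ranges that overlapped. The change was 0.33 ± 0.16 (adjusted p = 0.842) in 3 lines and 0.24 ± 0.11 (adjusted p = 0.193) without line 242. Gm29257, an opposite-strand transcript inside the Mdm4 locus, had at most 14 counts in any library. Ratios of Mdm2 to Mdm4 counts were 0.401, 1.15 and 0.308 in treated lines 240, 242 and 352, against 0.375, 0.476 and 0.306 in controls. This RNA ratio was thus near that of the control in lines 240 and 352 and more than doubled in line 242. The counts do not give the balance of the proteins.

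Cdkn1a (chr17:29090979-29100722, plus strand) encodes p21, the inhibitor of cyclin-dependent kinases through which p53 halts the cell cycle. It had 157, 908 and 529 CPM in treated lines 240, 242 and 352, and 54.1, 43.1 and 284 CPM in controls. Each treated library was well above its own control, yet the groups overlapped because untreated line 352 already exceeded treated line 240. Lines 240, 242 and 352 had folds of 2.90 (2.47 to 3.42), 21.1 (17.4 to 25.7) and 1.86 (1.79 to 1.94). Cdkn1a rose by 1.16 ± 0.14 (adjusted p = 6.30e-04) in lines 240 and 352 and had 2.17 ± 0.75 (adjusted p = 0.842) in 3 lines, so the fitted log2 value was nearly doubled where line 242 was included. Against Trp53 itself, Cdkn1a counts stood at 0.895, 7.89 and 2.17 per Trp53 count after PKF118-310 and 0.449, 0.277 and 1.53 in controls, so p21 RNA gained on p53 RNA in every line.

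Btg2 and Plk2 also act in growth arrest. Btg2 (chr1:134075170-134079120, minus strand), an antiproliferative partner of the mRNA deadenylase complex, had 120.2, 200.4 and 262 CPM in treated lines 240, 242 and 352, against 114, 102 and 171 CPM in controls. Line 240 was nearly level (1.06-fold, 0.919 to 1.21), while lines 242 and 352 were 1.96-fold (1.56 to 2.45) and 1.54-fold (1.46 to 1.62) above control, and the groups overlapped. Btg2 did not pass in 3 lines (0.55 ± 0.21, adjusted p = 0.842) or without line 242 (0.38 ± 0.13, adjusted p = 0.0801). Omitting the filter on low counts brought it past the threshold in lines 240 and 352 (adjusted p = 0.0142, with 3.06% of genes called higher; range over the alternatives 0.0142 to 0.9997).

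Plk2 (chr13:110395046-110400844, plus strand), a polo-like kinase, was close to silent in control cells, with 0, 9 and 1 counts in lines 240, 242 and 352, against 23, 152 and 21 counts after PKF118-310. In CPM the treated libraries held 7.34, 282 and 1.47 and the controls 0, 2.83 and 0.0738, so every line was higher after treatment although treated line 352 lay below untreated line 242. Line 240 was at least 9.86-fold higher against a floor of 3 counts in the control library, a bound that leaves out the counting error of the 23 treated counts (the exact lower limit on the footing of the other intervals was 7.39), and the folds of lines 242 and 352 were 99.7 (51.1 to 222) and 19.9 (3.20 to 822). Plk2 was too low to be tested in 3 lines. It passed in lines 240 and 352 (adjusted p = 0.00723), where its fitted fold depends on the prior count and is not given, and its high value in line 242 came from the library with the unusual mitochondrial share.

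Ccng1, Zmat3 and Phlda3 showed the clearest separation, the treated and control libraries not overlapping in any of them. Groups separated in this direction, PKF118-310 above control, in 3 of the 8 members tested and in 3.29% of all genes tested. Within lines 240 and 352 alone the same 3 members separated, and Plk2 too, as did 14.8% of genes. Ccng1 (chr11:40748552-40755311, minus strand) encodes cyclin G1, which acts with protein phosphatase 2A on Mdm2. It had 249, 562 and 262 CPM after PKF118-310 and 127, 113 and 83.1 CPM in controls of lines 240, 242 and 352, so that all treated libraries exceeded every control. The folds were 1.96 (1.75 to 2.19), 4.995 (4.27 to 5.84) and 3.16 (2.96 to 3.38). Ccng1 rose by 1.33 ± 0.14 (adjusted p = 2.45e-04) without line 242 and had 1.64 ± 0.29 (adjusted p = 0.842) with it. Its lanes differed in treated line 240 (439 and 342 counts, exact binomial adjusted p = 0.00533), and both lanes lay above the control of that line.

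Zmat3 (chr3:32334792-32366014, minus strand), an RNA-binding zinc finger protein, had 93.1, 169 and 127 CPM in treated lines 240, 242 and 352, against 39.7, 32.7 and 49.3 CPM in controls. The groups did not overlap, and the folds were 2.35 (1.93 to 2.86), 5.16 (3.85 to 6.91) and 2.57 (2.35 to 2.81), alike in lines 240 and 352 within counting error and higher in line 242. Means were 129.6 ± 38.0 CPM in PKF118-310 cells and 40.6 ± 8.32 CPM in control cells (SD, n = 3 each). Without line 242 Zmat3 rose by 1.31 ± 0.12 (adjusted p = 8.08e-05), the smallest adjusted p of any member, and its change in 3 lines was 1.62 ± 0.26 (adjusted p = 0.842).

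Phlda3 (chr1:135766119-135769136, plus strand) encodes a pleckstrin homology domain protein that keeps Akt from the membrane, in cells that here carry a membrane-targeted Akt2. Its levels were 22.01, 83.5 and 25.7 CPM in treated lines 240, 242 and 352 and 7.94, 20.1 and 5.68 CPM in controls. Line 242 was high in both groups, and the lowest treated library still exceeded the highest control. Folds were 2.77 (1.80 to 4.36), 4.15 (2.77 to 6.17) and 4.52 (3.53 to 5.86), with intervals that overlapped between the lines. Leaving out line 242 hardly moved the fitted change of Phlda3, which was 1.92 ± 0.25 (adjusted p = 0.631) in 3 lines and 1.91 ± 0.25 (adjusted p = 7.67e-04) without that line.

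Gdf15, the gene of a secreted stress cytokine of the TGF-β family (chr8:70629393-70632456, minus strand), was not detectable at this depth as an expressed gene, with 0, 0 and 1 counts in treated lines 240, 242 and 352 and 1, 0 and 0 counts in controls. A count of 0 allows up to 5.57 CPM in treated line 242, the shallowest library, and between 0.221 and 0.957 CPM in the other 3 libraries at 0 (3 counts over the scaled library size).

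**Figure D2:**
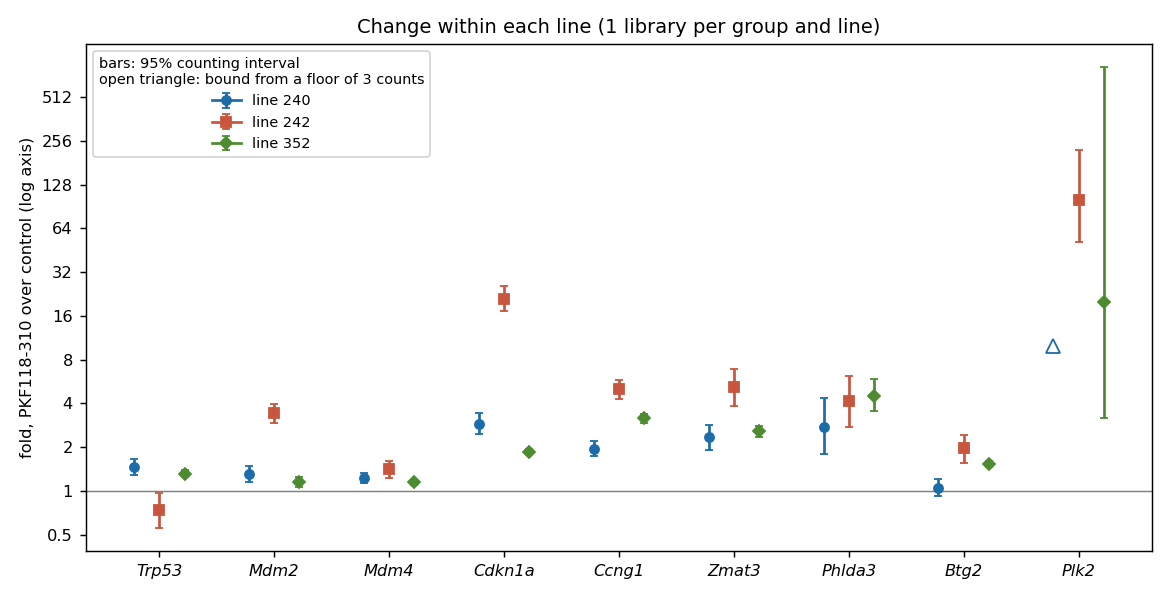
Fold of PKF118-310 over control within each line (vertical axis, log scale) for 9 members; bars are 95% exact conditional binomial intervals that cover counting error only, and the open triangle is the bound of Plk2 in line 240 from a floor of 3 counts. Trp53 in line 242 lies below 1 (0.739), Btg2 in line 240 has an interval that includes 1, and 7 of the 9 members, all but Trp53 and Phlda3, have their highest fold in line 242.

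Of the 8 members tested in 3 lines, 7 were higher after PKF118-310 in every line, as were 15.9% of all genes, and Trp53 was the exception. The median within-line log2 ratio of these 8 members in lines 240, 242 and 352 was 0.75, 1.90 and 0.76, with a prior count of 2 added. Over all genes tested the median was 0.00 in each line, and the SD of the ratios was 0.51, 1.33 and 0.47, so the line in which the members moved most was also the line in which all genes scattered most. Whether the response itself differs between lines was not tested, because a line has 1 library per group.

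**Figure D3:**
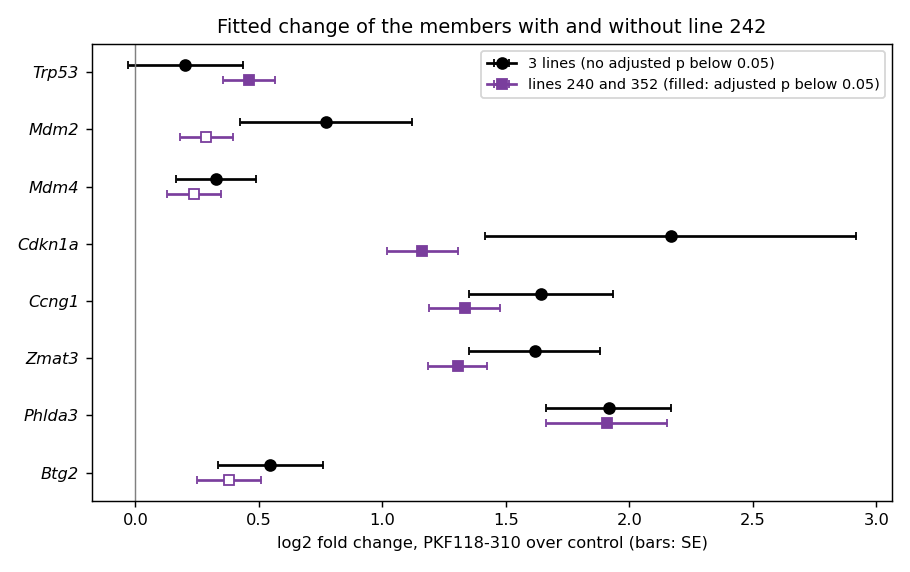
Log2 fold change of PKF118-310 over control (horizontal axis, bars are SE) for the 8 members tested in 3 lines, from the fit of 3 lines (black circles) and of lines 240 and 352 (purple squares, filled where the adjusted p is below 0.05). Cdkn1a has the widest bar with line 242 (0.75 against 0.14 without it), and Phlda3 is near 1.9 in both fits.

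Levels of different members were compared per kilobase of merged exons, which join the exons of all annotated transcripts of a gene. Their length was 14798 bases for Mdm4 and 11435 for Zmat3, against 1559 to 5083 for the other members. Annotated exons that are little used would lower a gene on this scale, which was not tested. In control cells the order was Btg2 (47.0 ± 13.3 CPM per kb), Trp53 (38.0 ± 7.97), Cdkn1a (35.7 ± 38.2), Ccng1 (30.6 ± 6.41), Mdm2 (24.5 ± 7.57), Mdm4 (21.5 ± 2.24), Phlda3 (7.21 ± 4.98), Zmat3 (3.55 ± 0.73), Plk2 and Gdf15 (SD, n = 3). The place of Cdkn1a rests on untreated line 352, where it ranked 1, against 6 in line 240 and 7 in line 242, and without line 352 its control mean was 13.7 CPM per kb. Each neighbour in the list as far as Mdm4 overlapped the next in its library values, Phlda3 lay below Mdm4 in every control library, and Phlda3 and Zmat3 overlapped. In PKF118-310 cells Cdkn1a came first (149 ± 106 CPM per kb) and Ccng1 second (102 ± 50.4), followed by Btg2 (70.8 ± 26.0), Mdm2 (53.7 ± 48.7) and Trp53 (44.0 ± 15.9), each overlapping the next in its library values. Leaving out line 242 lowered these means to 96.5 CPM per kb for Cdkn1a, 72.8 for Ccng1, 69.7 for Btg2 and 25.8 for Mdm2, which then ranked below Trp53 (51.8). Zmat3 stayed low on this scale, at 11.3 ± 3.32 CPM per kb in PKF118-310 cells.

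The second question was whether the lines themselves differed, whatever the treatment. In the fit of 3 lines none of the 8 members passed the test across lines (edgeR, 5.32% of genes called), and 3 had an unadjusted p below 0.05, Phlda3 (adjusted p = 0.0550), Mdm2 (adjusted p = 0.121) and Btg2 (adjusted p = 0.177). DESeq2 called 2 members, Mdm2 and Phlda3, and 16.1% of all genes. Line 352 stood out for Cdkn1a, whose control level of 284 CPM compared with 54.1 and 43.1 CPM in lines 240 and 242. In the fit without line 242, line 352 was above line 240 by 2.06 ± 0.15 for Cdkn1a (adjusted p = 2.06e-07), 0.86 ± 0.13 for Btg2 (adjusted p = 1.61e-04), 0.55 ± 0.11 for Trp53 (adjusted p = 0.00103) and 0.39 ± 0.12 for Zmat3 (adjusted p = 0.0178). Mdm2 was lower in line 352, with a change of -0.62 ± 0.11 (adjusted p = 4.49e-04). Plk2 was also called lower, but it entered that fit only through its treated libraries. It had 23 and 21 treated counts in lines 240 and 352 and 0 and 1 control counts, so its fitted value is not given and nothing is read from its call. The 6 calls, with Plk2 among them, stand against 44.7% of all genes that differed between the same lines. A difference between lines 352 and 240 was thus common to much of the transcriptome.

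Other genes of the pathway were read from 4 lists. None of their genes passed in the fit of 3 lines, where 0 of all 10331 genes passed. Of 27 tested among 30 other p53 targets, 11 rose and 2 fell when line 242 was left out, and 14 were not called, with a median log2 change of 0.33 against -0.01 over all genes (5.01% of genes called higher and 5.92% lower). Eda2r and Epha2, 2 of the 11, entered the test only through their treated libraries, with at most 3 counts in the controls of lines 240 and 352, and without them 9 of 25 rose and the median was 0.30. With line 242 included the median was 0.60 over 25 tested. Those with the smallest p were Aen, a p53-induced exonuclease (1.35 ± 0.13, adjusted p = 1.18e-04), Bbc3, which encodes the death effector Puma (1.69 ± 0.24, adjusted p = 0.00131), and Pidd1, a death domain protein (0.82 ± 0.13, adjusted p = 0.00311). Aen had 94.4, 102 and 58.7 CPM in treated lines 240, 242 and 352, against 34.2, 70.1 and 24.3 CPM in controls (1.12 ± 0.22 in 3 lines, adjusted p = 0.842). Each line was higher after treatment, as for 15.9% of all genes. Sesn1, an antioxidant and growth regulator, and Ckap2, a spindle protein, fell (-0.45 ± 0.12, adjusted p = 0.0339, and -0.51 ± 0.13, adjusted p = 0.0289). Ppm1d, the phosphatase Wip1 that closes another feedback loop on p53, had 0.26 ± 0.15 (adjusted p = 0.291).

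Among 17 activators and other regulators of p53, 1 rose and 2 fell in the same fit, and 14 were not called (median 0.00, and -0.04 with line 242), shares near the 5.01% and 5.92% of all genes called higher and lower, so nothing is read from the counts of this list. The kinase gene Atm rose by 0.53 ± 0.11 (adjusted p = 0.00823), with 147, 55.7 and 109 CPM in treated lines 240, 242 and 352 and 100.2, 83.6 and 76.9 CPM in controls, so that line 242 alone was lower after treatment, as for Trp53 (0.24 ± 0.26 in 3 lines, adjusted p = 0.888). The kinase gene Atr (-0.38 ± 0.11, adjusted p = 0.0408) and Usp28, a deubiquitinase (-0.71 ± 0.14, adjusted p = 0.00693), fell. Both were lower in treated lines 240 and 352 and higher in treated line 242 than in control. Cdkn2a, the locus of the Mdm2 antagonist p19Arf, was near the detection limit in lines 240 and 242. It had 0.319, 1.86 and 4.12 CPM in treated lines 240, 242 and 352, against 0.248, 0.629 and 6.93 CPM in controls (-0.70 ± 0.50, adjusted p = 0.420). The counts do not separate p19Arf from p16Ink4a, which this locus also encodes.

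Genes that p21 lowers through the DREAM repressor complex were examined next to Cdkn1a. In lines 240 and 352, 5 of 20 genes fell and none rose, 15 not passing, where 5.92% of all genes were called lower. The median was -0.26, and -0.39 with line 242 included. Ccnb2, a mitotic cyclin, had 122, 85.4 and 84.0 CPM in treated lines 240, 242 and 352, against 169, 155 and 163 CPM in controls (-0.74 ± 0.12, adjusted p = 0.00345, and -0.76 ± 0.17 in 3 lines, adjusted p = 0.842). Mki67, the proliferation antigen, and Foxm1, a mitotic transcription factor, changed by -0.61 ± 0.14 (adjusted p = 0.0144) and -0.47 ± 0.12 (adjusted p = 0.0251). Ccnb2, Mki67 and Foxm1 were lower after treatment in all 3 lines, as were 17% of all genes. Of the p53 family and further inhibitors of cyclin-dependent kinases, 4 of 7 could be tested and 3 fell in lines 240 and 352, unlike Cdkn1a. They were Cdkn2d (-1.11 ± 0.17, adjusted p = 0.00195), Cdkn2c (-0.80 ± 0.12, adjusted p = 0.00176) and Cdkn1b (-0.71 ± 0.11, adjusted p = 0.00223), and in line 242 all 3 were higher after treatment, with log2 ratios of 0.96, 0.27 and 0.26. The median of this list was -0.75 in lines 240 and 352 and -0.49 in 3 lines.

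**Figure D4:**
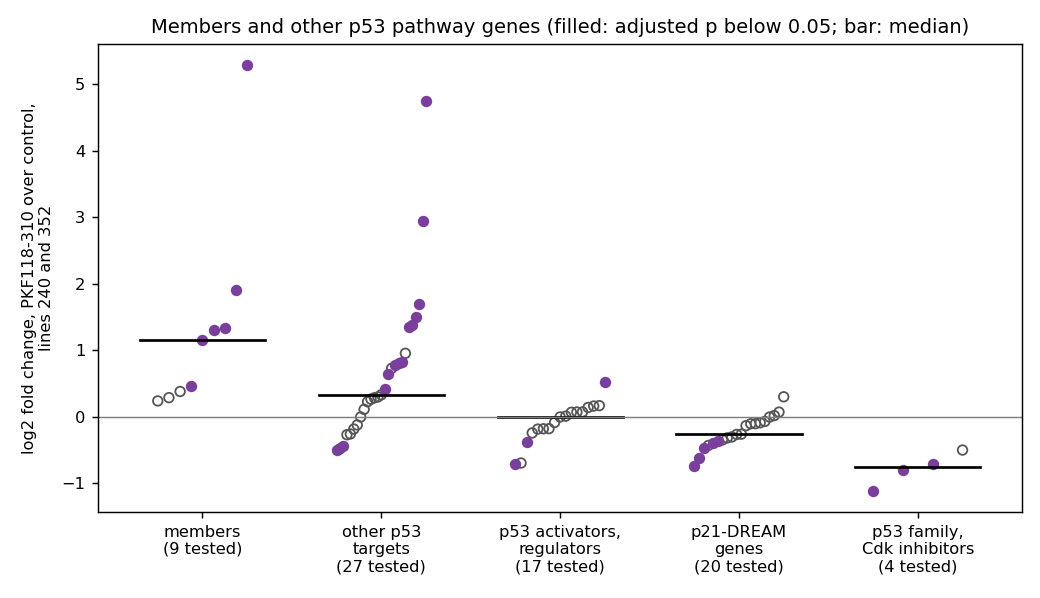
Log2 fold change of PKF118-310 over control in lines 240 and 352 (vertical axis) for each tested gene among the members and the 4 lists of pathway genes, ordered by value, with Eda2r and Epha2 among the other p53 targets; filled points have an adjusted p below 0.05 and bars are medians. The other p53 targets spread around a median of 0.33, the regulators around 0.00 and the p21-DREAM genes around -0.26; the top member point is Plk2, whose fitted value depends on the prior count.

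The 5 genes whose 3 within-line log2 ratios lay closest to those of Cdkn1a (1.53, 4.39 and 0.90 in lines 240, 242 and 352) were A430105I19Rik, Cd53, Slc6a9, Anxa1 and Mmp13, at Euclidean distances of 0.31 to 0.68 among 9748 genes averaging at least 5 CPM. None is a member, and their values in line 242 rest on 4 to 31 counts in the PKF118-310 library and 0 to 6 counts in the control library. The likeness is over 3 pairs of libraries and is a description only.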

How the data were processed

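The authors deposited raw read counts per gene symbol, 1 count table per lane, for 6 poly(A)-selected libraries made with a strand-specific Illumina mRNA kit and sequenced in 2 lanes each. Their processing notes name HISAT2, HTSeq, edgeR and build mm10, while the methods of the study name TopHat. No gene annotation, strand setting or handling of multi-mapping reads was given in the sources used here. If strand was not used in counting, reads of Mdm4 and of an opposite-strand transcript inside it cannot be told apart. The labels mark the 2 tables of a library as lanes, so lane counts were summed and treated as 1 replicate. A supplementary legend of the study instead describes a pair of separate control and of separate treated cultures per line. If the tables were those cultures, n would be larger than stated here. The chi-square per degree of freedom between the 2 tables was 0.98 to 1.02 in lines 240 and 242 and 2.01 to 2.05 in line 352.

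Counts were scaled by TMM and tested with edgeR 4.0.16 (R 4.3.3, quasi-likelihood, filterByExpr, Benjamini-Hochberg over all genes kept, adjusted p below 0.05), with the line as a block because the PKF118-310 and control libraries of a line come from the same mouse. The deviations of same-line libraries correlated at 0.67, 0.30 and 0.79 in lines 240, 242 and 352. The same fit was made for lines 240 and 352, and an F test compared the 3 lines. Depth was 604984 to 13766638 counts per library. Of 52535 symbols, 48108 were in the GENCODE annotation of GRCm38 used for positions and exon lengths. Within-line folds carry 95% exact conditional binomial intervals, and a count of 0 was set to a floor of 3 counts. Both cover counting error only, and no molecular identifiers are named in the protocols.

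The members, pathway lists and tests were chosen with earlier results of these data known. All members are named, and from each list at most 3 genes higher and 3 lower with the smallest p among those passing in lines 240 and 352, plus Cdkn2a and Ppm1d. Alternatives were DESeq2 1.42.0, limma 3.58.1 voom, edgeR's likelihood ratio test, other scalings, other count filters, single lanes, no block, each line left out, a prior count of 0.5, and TPM for levels per kb. Scripts were tested on simulated counts.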

Additional observations from a re-analysis of the deposited data

Results flagged for a closer look

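Trp53 moved in opposite directions between the lines, with within-line log2 ratios of PKF118-310 over control of 0.54 in line 240, -0.43 in line 242 and 0.40 in line 352 (prior count 2, 1 library per group and line). The same order, lower in line 242 and higher in lines 240 and 352, was found in 18.7% of all genes tested. The difference between the lines was not tested. The treated library of line 242 held 62 Trp53 counts and had 11.8% of its counts from mitochondrial genes, and the part of these features in the value was not tested.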

How the results depend on the processing

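In 3 lines, edgeR's quasi-likelihood test called 0 genes, and other scalings, a minimum of 10 counts in every library, single lanes and the fit without the replicate block also called 0. DESeq2 called 35 genes higher and 10 lower with 4 members among them, the likelihood ratio test 56 and 29 with 3 members, voom with sample weights 327 and 474 with 3 members, and no filter 260 and 52 with 5 members. Leaving out 1 line gave 3 to 589 genes higher, 0 to 696 lower and 1 to 6 members, the single member without line 240 or line 352 being Plk2. Plk2 is also among the 6 members called without line 242. The change of Trp53 was -0.031 to 0.46 with 1 line left out, the reversed value of -0.031 being that without line 240. In lines 240 and 352, where the blocked test called 589 higher and 696 lower, the fit with no replicate block called 0 genes higher, 0 lower and 0 members. There DESeq2 called 107 and 158, a minimum of 10 counts in every library 315 and 403, and lane 2 alone 349 and 404, with 4 to 7 members across the alternatives other than the unblocked fit. Plk2 was not among those members with DESeq2, single lanes or the minimum of 10 counts, and was with the other alternatives. Between lines, 550 genes differed, and the count was 1665 with DESeq2 (2 members), 2883 with the likelihood ratio test (2 members), 3009 with no filter (5 members), 220 with a minimum of 10 counts, 847 with lane 1 alone and 209 to 5257 with 1 line left out (1 to 6 members). Plk2 is among the members called with no filter and with 1 line left out. With a prior count of 0.5, Gdf15 had log2 ratios of -2.07 in line 240 and 0.93 in line 352, from 1 count each. Ranks of control levels per kb did not change with TPM, which uses the same exon lengths. With 1 line left out, an alternative chosen after seeing the data, the rank of Cdkn1a was 2 to 6, of Trp53 3, of Ccng1 2 to 4, of Mdm2 4 to 5, of Mdm4 5 to 6, of Plk2 9 to 10 and of Gdf15 9 to 10. The low depth of treated line 242 limits all values that include it.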
